A study of Mus musculus with 8 samples.

Results

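The expression of 9 collagen genes outside the main fibril-forming chains was measured by RNA sequencing in fibroblasts of the healing mouse infarct. They were Col6a1, Col6a2, Col6a3 and Col6a6 of collagen VI, Col8a1 and Col8a2 of collagen VIII, and the fibril-associated chains Col12a1, Col14a1 and Col16a1. They were taken by name from the gene table, 9 of 54532 genes, and all 9 were among the 11667 genes tested, those that reached 1 FPKM in 4 or more of the 8 libraries. FPKM counts fragments per kilobase of a gene and is scaled by library depth. The first group was labelled FTbR2KO, in which the TGF-β receptor TbR2 (gene Tgfbr2) was to be deleted in fibroblasts, and the second TbR2fl/fl, the controls with the floxed gene. There were 4 libraries in each group, numbered 1 to 4 and 5 to 8 in the titles. Mice of both groups received tamoxifen and underwent coronary occlusion, and PDGFRα+ cells were sorted from the infarcts 7 days later, with no culture. The driver of the recombinase and the age of the mice were not given in the sources used here, nor is it stated that each library came from its own mouse. The p-values therefore reflect spread between libraries, which may be technical.

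Collagen VI is built from 3 different chains, α1, α2 and α3, which fold into a short triple helix, pair and stack inside the cell, and are then laid down outside it as beaded microfilaments around cells and between larger fibrils. The α4, α5 and α6 chains resemble α3 and can take its place beside α1 and α2. Collagen VIII is a short-chain collagen that forms open networks in vessel walls and other remodelling matrix, from α1 chains, α2 chains or both. Collagens XII, XIV and XVI belong to the fibril-associated collagens with interrupted triple helices, which sit on the surface of fibrils made of collagens I and III or, for collagen XVI, on other matrix filaments too, and link them to neighbouring matrix. TGF-β is a general inducer of matrix genes in fibroblasts.

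The sequence just upstream of the gene start is shown for the 3 partner chains of the collagen VI molecule, for both chains of collagen VIII, and for Col16a1, the member with the smallest genotype p, so that the chains of one molecule can be read side by side. The windows hold up to 250 bases before the start in the RefSeq annotation of GRCm38.p6 and are written in the gene's own direction. Bases that fall inside the span of the gene in the deposited table were left off, which shortened Col6a1 and Col8a2. The regions are chr10:76726169-76726294 on the minus strand for Col6a1, chr10:76623631-76623880 on the minus strand for Col6a2 (the farther upstream of its 2 starts), chr1:90843972-90844221 on the minus strand for Col6a3, chr16:57754738-57754987 on the minus strand for Col8a1, chr4:126286544-126286792 on the plus strand for Col8a2 and chr4:130047590-130047839 on the plus strand for Col16a1. Capitals mark matches, on either strand, to the Smad box CAGAC or GTCTG, the GC box GGGCGG or CCGCCC, the AP-1 site TGANTCA, the CCAAT box CCAAT or ATTGG, and the TATA box TATAAA or TTTATA.
Col6a1: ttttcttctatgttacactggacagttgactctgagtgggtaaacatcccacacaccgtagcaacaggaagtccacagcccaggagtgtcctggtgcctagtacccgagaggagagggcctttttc
Col6a2: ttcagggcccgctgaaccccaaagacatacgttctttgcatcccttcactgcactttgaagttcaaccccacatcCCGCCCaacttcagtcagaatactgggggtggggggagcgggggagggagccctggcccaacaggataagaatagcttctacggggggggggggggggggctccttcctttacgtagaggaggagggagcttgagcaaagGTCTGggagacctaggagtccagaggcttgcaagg
Col6a3: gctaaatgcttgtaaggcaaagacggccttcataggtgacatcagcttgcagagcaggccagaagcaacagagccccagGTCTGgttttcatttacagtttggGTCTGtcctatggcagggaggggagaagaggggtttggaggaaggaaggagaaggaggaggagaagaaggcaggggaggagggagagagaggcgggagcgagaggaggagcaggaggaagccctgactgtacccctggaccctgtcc
Col8a1: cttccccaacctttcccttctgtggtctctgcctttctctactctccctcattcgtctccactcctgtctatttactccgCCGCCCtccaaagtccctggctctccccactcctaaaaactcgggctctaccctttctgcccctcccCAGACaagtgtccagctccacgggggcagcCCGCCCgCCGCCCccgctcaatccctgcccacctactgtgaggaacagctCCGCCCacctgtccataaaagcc
Col8a2: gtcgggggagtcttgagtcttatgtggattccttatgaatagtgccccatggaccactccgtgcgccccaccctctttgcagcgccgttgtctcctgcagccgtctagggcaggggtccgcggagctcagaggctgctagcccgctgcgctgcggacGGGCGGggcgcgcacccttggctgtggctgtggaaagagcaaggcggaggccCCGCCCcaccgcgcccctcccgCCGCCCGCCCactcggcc
Col16a1: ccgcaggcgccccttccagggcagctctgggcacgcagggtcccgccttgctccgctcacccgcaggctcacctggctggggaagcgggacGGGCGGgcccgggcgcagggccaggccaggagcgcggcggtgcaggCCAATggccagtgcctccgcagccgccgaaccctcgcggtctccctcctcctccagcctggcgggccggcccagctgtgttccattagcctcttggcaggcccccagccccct
Of the 9 genes, 7 had a window in the RefSeq table, and Col6a2 had 2. A gene was counted if any of its windows held the motif, while the shares of all windows count each window alone. A Smad box was found in 4 of these 7 genes, against 42.2% of all 32851 windows of the same length in the table. A GC box was found in 5 of the 7, against 32.7% of all windows, and the Col8a1 and Col8a2 windows each held 4, of which the last 2 in Col8a2 overlap. A CCAAT box was found in Col16a1 alone, against 33.8% of windows, and a TATA box in none of the 7, against 12.4%. One AP-1 site was found, in the part of the Col6a1 window that lies inside the gene and is not printed, against 6.75% of windows. No motif was found in all 3 collagen VI partner genes. These matches describe letters in a window and do not show that a factor binds there.

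Reads recovered from the FPKM steps totalled 16.1 to 22.9 M per FTbR2KO library and 21.2 to 28.7 M per TbR2fl/fl library (exact two-sided permutation test, p = 0.0571, n = 4 each). Tgfbr2, the gene named by the knockout, went against the labels. It had 60.0, 58.1, 56.9 and 57.8 FPKM in the libraries labelled FTbR2KO and 49.6, 40.3, 46.7 and 45.4 FPKM in the TbR2fl/fl libraries. The groups did not overlap, and 2.52% of tested genes were likewise higher without overlap. The log2 fold change was 0.35 (interval 0.16 to 0.55), with an unadjusted limma p of 0.00262 and an adjusted p of 0.571. Every direction below is therefore that of the label only. Values per gene include reads outside the deleted part of a floxed gene, and the deleted part was not given in the sources used here. The cause of the higher Tgfbr2 values was not tested. The first principal component of all tested genes held 33.0% of the variance. On it FTbR2KO library 1 and TbR2fl/fl library 5 lay at 24.4 and 20.9 and the other 6 between -19.0 and 0.108. Component 2 held 22.7% and split the libraries otherwise. Its scores ran from -11.6 to -4.80 in the TbR2fl/fl group, a range that also took in FTbR2KO library 4 at -9.05. Libraries 1, 2 and 3 were apart from these, at 6.77, 16.6 and 19.6. Sums over 7 fibroblast markers lay between 5447 and 6239.7 FPKM in the libraries labelled FTbR2KO against 6345 to 6931 FPKM in the TbR2fl/fl libraries. Col1a1, itself a collagen, made up most of the sum, with means of 3934 and 5005 FPKM, while 5 of the 7 markers had a log2 fold change above 0, with a median of 0.07. The part of these markers in the results below was not tested. Leukocyte markers summed to 7.48 to 10.8 FPKM in FTbR2KO libraries against 8.09 to 10.9 FPKM in TbR2fl/fl libraries, with Ptprc under 0.04 FPKM throughout. Cardiomyocyte markers summed to 2.08 to 4.51 FPKM in FTbR2KO libraries against 3.32 to 4.17 FPKM in TbR2fl/fl libraries, and Schwann cell markers to 8.15 to 9.17 FPKM in FTbR2KO libraries against 5.93 to 8.58 FPKM in TbR2fl/fl libraries. Endothelial markers summed to 19.4 to 25.5 FPKM in FTbR2KO libraries against 17.9 to 28.4 FPKM in TbR2fl/fl libraries. Of these 6 markers only 1, Tek, was among the tested genes, and 3 were under 1 FPKM in every library. Mural markers summed to 50.0 to 77.5 FPKM in FTbR2KO libraries against 49.6 to 64.5 FPKM in TbR2fl/fl libraries. In bulk libraries fewer cells of a type and less RNA per cell cannot be told apart.

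None of the 9 collagens passed the threshold of an adjusted p of 0.05 between the genotypes (limma on log2(FPKM + 1) with Benjamini-Hochberg adjustment over all 11667 genes, of which 0.0171% passed). At an unadjusted p of 0.05, 1 of 9 was lower in the libraries labelled FTbR2KO, Col16a1, where 4.87% of tested genes were lower, and 0 of 9 were higher, where 3.74% were (8.61% in either direction). The groups overlapped for all 9, while they did not overlap for 4.41% of tested genes, 2.52% higher and 1.89% lower. Of the 9 log2 fold changes 6 were above 0 and 3 below, where 48.8% of tested genes were above and 51.2% below. The median of the 9 was 0.04, against -0.0045 for all tested genes. Single libraries turned this balance, which was 3 above 0 and 6 below without FTbR2KO library 2 (median -0.018), FTbR2KO library 4 (median -0.033) or TbR2fl/fl library 5 (median -0.013). On the TPM scale 7 were above 0 and 2 below, with a median of 0.21, and 6 were above the median of all genes. The collagen VI partner chains, Col8a1, Col12a1 and Col6a6 had estimates above 0, and Col8a2, Col14a1 and Col16a1 below it.

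**Figure D1:**
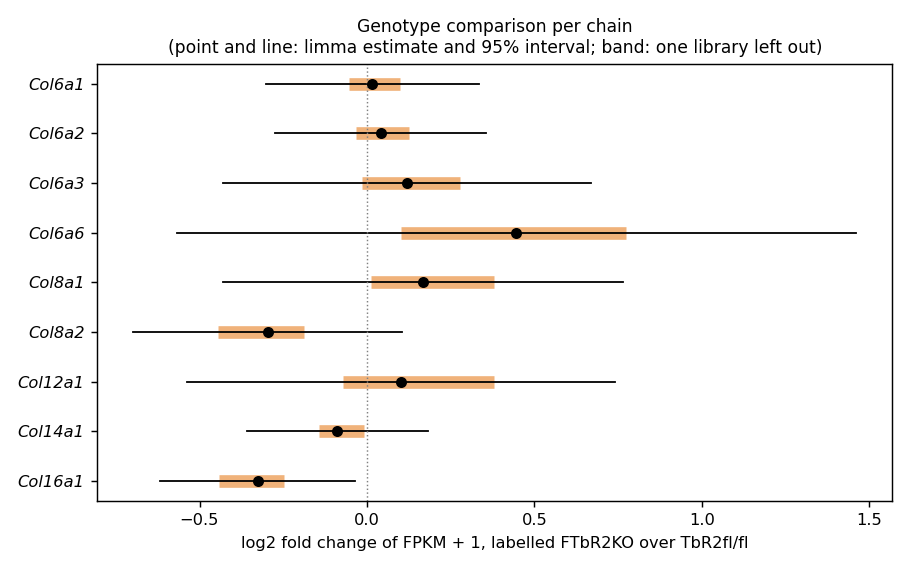
Log2 fold change on the log2(FPKM + 1) scale of each collagen gene in libraries labelled FTbR2KO over TbR2fl/fl libraries (n = 4 each), with its 95% confidence interval from limma and the range obtained when each library is left out in turn. The interval of Col16a1 alone lies wholly below 0, from -0.62 to -0.04, and its adjusted p is 0.571.

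Col6a1 encodes the α1 chain of collagen VI and had the highest level of the 9. It had 614, 734, 614 and 790.1 FPKM in the libraries labelled FTbR2KO and 620.3, 624, 804 and 673 FPKM in the TbR2fl/fl libraries. The highest value belonged to a TbR2fl/fl library and the 2 lowest to FTbR2KO libraries, and the ranges overlapped almost wholly. The means were 688 ± 88.4 and 680.2 ± 85.7 FPKM (SD, n = 4 each), with a log2 fold change of 0.02 (SE 0.14, 95% interval -0.30 to 0.33, limma adjusted p = 0.982).

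Col6a2 encodes the α2 chain and lies 85.2 kb from Col6a1 on chromosome 10, on the same strand (Col6a2 at 76595762 to 76623630, Col6a1 at 76708792 to 76726168, GRCm38). It had 304, 379, 323 and 410.0 FPKM in the libraries labelled FTbR2KO and 305, 323, 407 and 340.2 FPKM in the TbR2fl/fl libraries. FTbR2KO library 4 and TbR2fl/fl library 7 were the highest of their groups for both genes, and the groups overlapped. The means were 354 ± 49.0 and 344 ± 44.6 FPKM (SD, n = 4 each), with a log2 fold change of 0.04 (SE 0.14, interval -0.27 to 0.36, limma adjusted p = 0.949).

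Col6a3 encodes the long α3 chain, whose C-terminal end is cut off after secretion to give the fragment endotrophin, and lies on chromosome 1 (90765923 to 90843971, minus strand). It had 132, 242, 150.1 and 235 FPKM in the libraries labelled FTbR2KO and 137, 183, 231 and 139 FPKM in the TbR2fl/fl libraries. Both groups held low and high libraries, and their ranges overlapped almost wholly. The means were 190 ± 56.8 and 172 ± 44.3 FPKM (SD, n = 4 each), with a log2 fold change of 0.12 (SE 0.24, interval -0.43 to 0.67, limma adjusted p = 0.908). Without FTbR2KO library 2 or 4 the estimate went below 0.

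**Figure D2:**
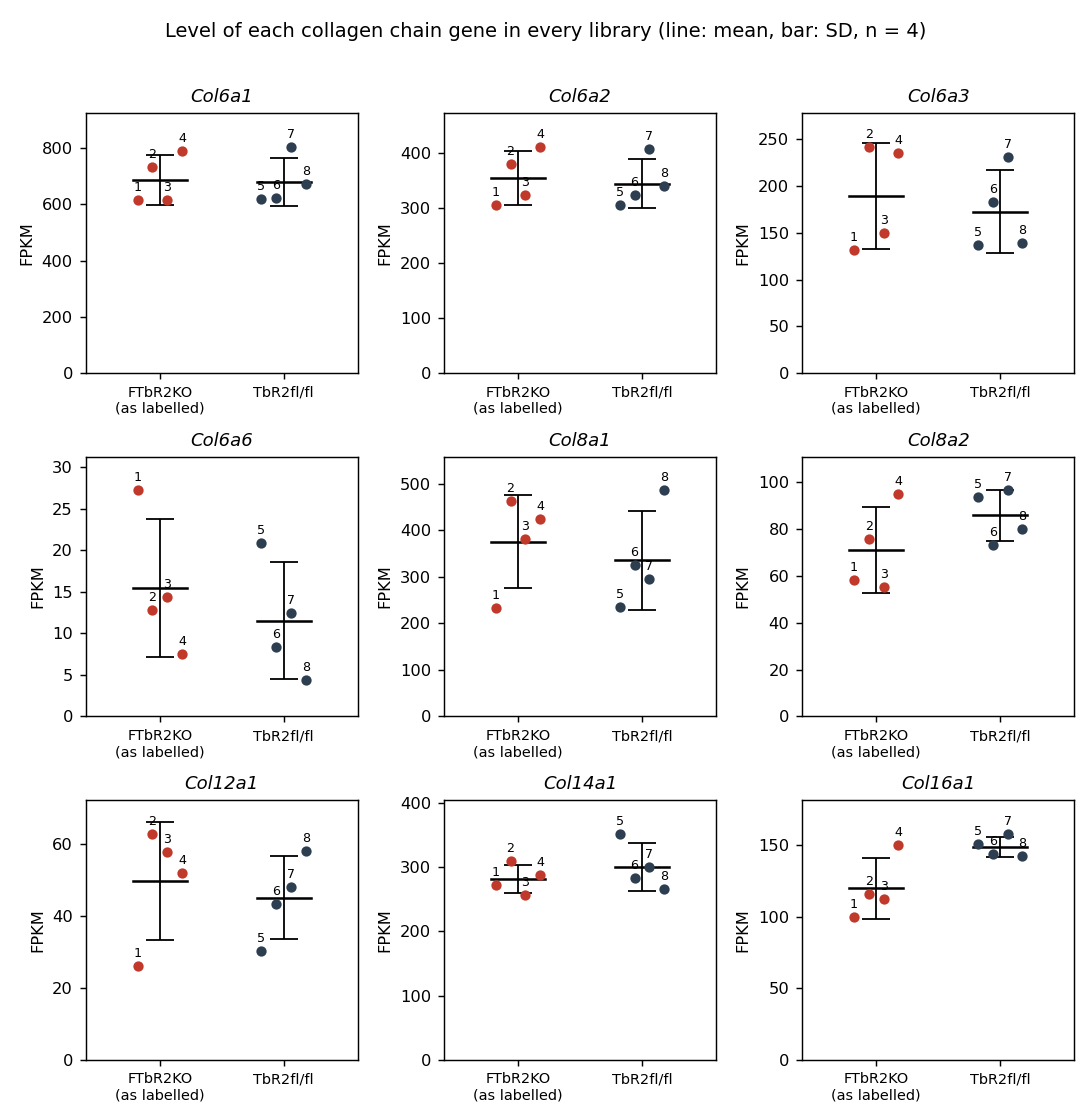
FPKM of each of the 9 collagen genes in every library, one panel per gene with its own linear axis from 0, libraries labelled FTbR2KO left of TbR2fl/fl libraries, points for libraries and bars for the mean and SD (n = 4 each). The 2 groups overlap in every panel, and Col6a6 spreads most for its level, from 4.39 to 27.2 FPKM.

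The balance of the partner chains was compared as the ratio of 2 genes within each library, which cancels the scaling of the library. Col6a1 over Col6a2 was 2.02, 1.93, 1.90 and 1.93 in the libraries labelled FTbR2KO and 2.03, 1.93, 1.97 and 1.98 in the TbR2fl/fl libraries. All 8 values lay within 1.90 to 2.03, and the means were 1.95 ± 0.0504 and 1.98 ± 0.0402 (SD, n = 4 each, exact two-sided permutation test, p = 0.343). The value near 2 depends on the lengths by which the authors divided. The deposited length of Col6a2 is 8326 bases, the merged length of all its exons including 1 transcript with a retained intron, while its principal transcript has 3949 bases in 28 exons. For Col6a1 the 2 lengths are 4380 and 4100 bases. With the principal transcripts' lengths, chosen after the lengths were seen, the ratio was 0.994 on average over the 8 libraries and ranged from 0.964 to 1.03.

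Col6a3 over Col6a1 was 0.214, 0.329, 0.244 and 0.297 in the libraries labelled FTbR2KO and 0.221, 0.293, 0.287 and 0.207 in the TbR2fl/fl libraries. This ratio varied more between libraries than that of Col6a1 to Col6a2, with a low and a high library in each group. The means were 0.271 ± 0.0515 and 0.252 ± 0.0444 (SD, n = 4 each, exact two-sided permutation test, p = 0.571). With the principal transcripts' lengths the mean over all 8 was 0.326, between 0.258 and 0.409, so the α3 message stood below the α1 message in every library at either length. Adjusted over the 5 ratios compared, each of the 5 p-values was 0.6, and 4 against 4 libraries allow no p below 0.0286.

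**Figure D3:**
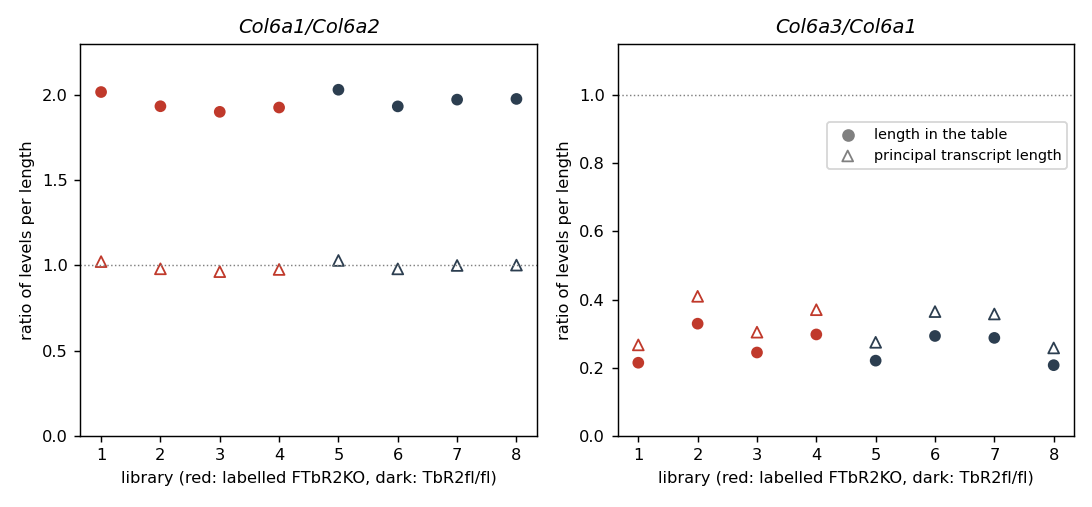
Ratios of Col6a1 to Col6a2 and of Col6a3 to Col6a1 in every library, by the deposited gene lengths and by the lengths of the principal transcripts, with libraries labelled FTbR2KO left of TbR2fl/fl libraries. The ratio of Col6a1 to Col6a2 stays within 1.90 to 2.03 at the deposited lengths and within 0.964 to 1.03 at the principal lengths.

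Col6a6 encodes the α6 chain, a long relative of α3, and was the lowest of the 9. It lies on chromosome 9 (105687809 to 105828160, minus strand), 27.9 kb from Col6a5. It had 27.2, 12.9, 14.3 and 7.56 FPKM in the libraries labelled FTbR2KO and 20.9, 8.37, 12.5 and 4.39 FPKM in the TbR2fl/fl libraries. Each group had 1 library well above the rest, number 1 and number 5, the pair that stood apart on the first principal component. The means were 15.5 ± 8.33 and 11.5 ± 7.05 FPKM (SD, n = 4 each), with a log2 fold change of 0.45 (SE 0.45, interval -0.57 to 1.46, limma adjusted p = 0.786). It was 0.14 without FTbR2KO library 1, 0.10 without TbR2fl/fl library 8, 0.72 without FTbR2KO library 4 and 0.77 without TbR2fl/fl library 5. The groups overlapped over most of their range.

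Col6a5, its neighbour, had 13.0, 5.86, 10.2 and 0.214 FPKM in the libraries labelled FTbR2KO and 16.5, 4.78, 1.79 and 4.63 FPKM in the TbR2fl/fl libraries. Like Col6a6 it was highest in libraries 1 and 5. Col6a4, the third gene of the cluster, was at most 0.108 FPKM in any library. The sum of 6 epicardial and mesothelial markers was 35.5, 11.7, 23.1 and 4.24 FPKM in the libraries labelled FTbR2KO and 22.1, 9.87, 0.723 and 13.7 FPKM in the TbR2fl/fl libraries. Libraries 1 and 5 were again the highest of their groups, while the lowest TbR2fl/fl library was number 7 for the markers and for Col6a5 and number 8 for Col6a6. The part of these markers in the levels of Col6a5 and Col6a6 was not tested. Against Col6a3, Col6a6 stood at 0.207, 0.0533, 0.0954 and 0.0322 in the libraries labelled FTbR2KO and 0.153, 0.0458, 0.0540 and 0.0315 in the TbR2fl/fl libraries, and Col6a3 was the highest of the α3-like chains in every library.

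**Figure D4:**
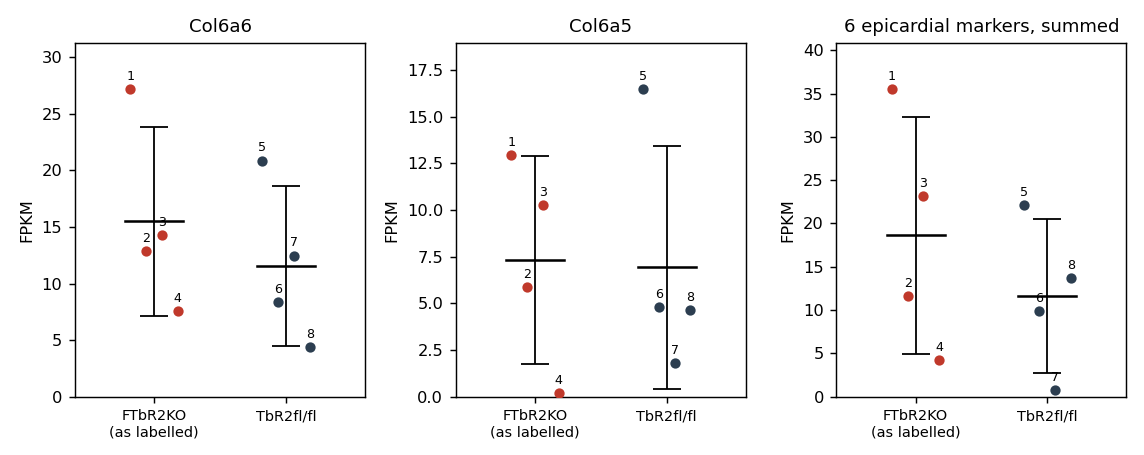
FPKM of Col6a6, of its neighbour Col6a5 and the summed FPKM of 6 epicardial and mesothelial markers in every library, libraries labelled FTbR2KO left of TbR2fl/fl libraries. FTbR2KO library 1 and TbR2fl/fl library 5 are the highest of their group in all 3 measures.

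Col8a1 encodes the α1 chain of collagen VIII and lies on chromosome 16 (57624258 to 57754737, minus strand). It had 234, 463, 381 and 424 FPKM in the libraries labelled FTbR2KO and 234, 325, 296 and 486 FPKM in the TbR2fl/fl libraries. Libraries 1 and 5 were the lowest of their groups, and the highest value was in a TbR2fl/fl library. The means were 375 ± 100.3 and 335 ± 107 FPKM (SD, n = 4 each), with a log2 fold change of 0.17 (SE 0.26, interval -0.43 to 0.76, limma adjusted p = 0.876). Leaving out TbR2fl/fl library 5 brought it to 0.013, FTbR2KO library 2 to 0.052 and FTbR2KO library 4 to 0.093, while it was 0.38 without FTbR2KO library 1 and 0.36 without TbR2fl/fl library 8.

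Col8a2 encodes the α2 chain and lies on chromosome 4 (126286793 to 126314330, plus strand). It had 58.1, 75.9, 55.3 and 95.1 FPKM in the libraries labelled FTbR2KO and 93.7, 73.4, 96.6 and 80.3 FPKM in the TbR2fl/fl libraries. The 2 lowest values were in FTbR2KO libraries 1 and 3, while libraries 2 and 4 of that group were inside the TbR2fl/fl range, so the groups overlapped. The means were 71.1 ± 18.4 and 86.0 ± 10.97 FPKM (SD, n = 4 each), with a log2 fold change of -0.30 (SE 0.18, interval -0.70 to 0.11, limma adjusted p = 0.648). It was -0.19 without FTbR2KO library 3. Without FTbR2KO library 4 it was -0.45, with an interval of -0.79 to -0.10 that excluded 0 and a limma adjusted p of 0.289. Col8a1 over Col8a2 was 4.02, 6.09, 6.90 and 4.46 in the libraries labelled FTbR2KO and 2.50, 4.43, 3.07 and 6.05 in the TbR2fl/fl libraries. The means were 5.37 ± 1.36 and 4.01 ± 1.58 (SD, n = 4 each, exact two-sided permutation test, p = 0.2, adjusted p = 0.6). With the principal transcripts' lengths the mean ratio over the 8 libraries was 6.94, and Col8a1 was above Col8a2 in every library.

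Col16a1 encodes the chain of collagen XVI, a fibril-associated homotrimer, and lies on chromosome 4 (130047840 to 130099283, plus strand). It had 100.2, 116, 113 and 151 FPKM in the libraries labelled FTbR2KO and 151, 144, 158 and 143 FPKM in the TbR2fl/fl libraries. FTbR2KO libraries 1 to 3 were below every TbR2fl/fl library, and library 4 lay inside the TbR2fl/fl range. The means were 120 ± 21.5 and 149 ± 7.12 FPKM (SD, n = 4 each), with a log2 fold change of -0.33 (SE 0.13, interval -0.62 to -0.04). The unadjusted limma p was 0.0318 and the adjusted p 0.571, and an exact two-sided permutation test gave p = 0.0857 (n = 4 each). The interval included 0 after quantile normalization (-0.54 to 0.06) and on the TPM scale (-0.43 to 0.10). It also included 0 without any single library other than FTbR2KO library 4 or TbR2fl/fl library 8. Without FTbR2KO library 4 the estimate was -0.44 (interval -0.68 to -0.20, limma adjusted p = 0.218). Without TbR2fl/fl library 8 it was -0.35 (interval -0.68 to -0.01, limma adjusted p = 0.758).

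Col12a1 encodes collagen XII, found in tissues under tension and in healing wounds, and lies on chromosome 9 (79598991 to 79718831, minus strand). It had 26.01, 62.8, 57.7 and 51.9 FPKM in the libraries labelled FTbR2KO and 30.4, 43.4, 48.1 and 58.1 FPKM in the TbR2fl/fl libraries. Libraries 1 and 5 were again the lowest of their groups, and the other 6 lay within 43.4 to 62.8 FPKM. The means were 49.6 ± 16.3 and 45.0 ± 11.5 FPKM (SD, n = 4 each), with a log2 fold change of 0.10 (SE 0.28, interval -0.54 to 0.74, limma adjusted p = 0.937). Without FTbR2KO library 2 or TbR2fl/fl library 5 the estimate went below 0.

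Col14a1 encodes collagen XIV, the close relative of collagen XII, and lies on chromosome 15 (55307750 to 55520803, plus strand). It had 272, 309, 257 and 288 FPKM in the libraries labelled FTbR2KO and 352, 283, 300.1 and 267 FPKM in the TbR2fl/fl libraries. It was the steadiest of the 9, with a within-group spread of log2 values at the 44.6th percentile of tested genes. The means were 281 ± 22.3 and 300.4 ± 37.1 FPKM (SD, n = 4 each), with a log2 fold change of -0.09 (SE 0.12, interval -0.36 to 0.18, limma adjusted p = 0.850). On the TPM scale, which moved the median of all tested genes to 0.15, it was 0.08, and relative to that median -0.07. Col12a1 over Col14a1 was 0.0957, 0.203, 0.224 and 0.181 in the libraries labelled FTbR2KO and 0.0862, 0.154, 0.160 and 0.218 in the TbR2fl/fl libraries. The means were 0.176 ± 0.0564 and 0.154 ± 0.0539 (SD, n = 4 each, exact two-sided permutation test, p = 0.543, adjusted p = 0.6), and Col14a1 was the higher of the 2 in every library.

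By mean FPKM over the 8 libraries the order was Col6a1 at 684, Col8a1 at 355, Col6a2 at 349, Col14a1 at 291, Col6a3 at 181, Col16a1 at 134, Col8a2 at 78.5, Col12a1 at 47.3 and Col6a6 at 13.5. The ranges of Col6a1 and Col8a1, of Col14a1 and Col6a3, and of Col16a1 and Col8a2 did not overlap, and those of the other neighbours in this order did. Col8a1 was above Col6a2 in 5 of 8 libraries, so these neighbours did not differ beyond their spread. With the principal transcripts' lengths Col6a2 stood first at 736 ± 92.2 and Col6a1 second at 731 ± 86.2 (SD, n = 8), then Col8a1, Col14a1 and Col6a3 as before. Among the 44 protein-coding collagen chains in the table, Col6a1 ranked 4th, Col8a1 10th, Col6a2 11th, Col14a1 12th, Col6a3 13th and Col6a6 22nd by FPKM. The 9 genes together held 14.5 to 16.3% of the summed FPKM of those chains in FTbR2KO libraries, against 12.05 to 14.8% in TbR2fl/fl libraries. The share also depends on the other chains, above all the fibrillar ones described below.

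The 9 genes differed widely in how much they varied between libraries. The coefficient of variation over the 8 libraries was 10.3% for Col14a1, 11.8% for Col6a1, 12.5% for Col6a2 and 16.0% for Col16a1. It was 20.5% for Col8a2, 26.5% for Col6a3, 27.7% for Col8a1, 28.2% for Col12a1 and 55.2% for Col6a6. The within-group spread of log2 values lay at the 99.0th percentile of tested genes for Col6a6, the 95.9th for Col12a1, the 94.7th for Col8a1 and the 93.4th for Col6a3, against the 59.9th for Col6a1 and the 63.6th for Col6a2.

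Pairs of chains were compared across the 8 libraries on the log2(FPKM + 1) scale in 36 correlations, 27 of them above 0. The same counts for pairs of all tested genes were not computed, so the counts here have no background beside them. The 2 libraries left out below are those farthest from the median of the first gene named. Col6a1 and Col6a2 gave r = 0.983 (exact permutation, p = 0.000496, adjusted p = 0.0179, n = 8), with rho = 0.833, and r = 0.951 without FTbR2KO library 4 and TbR2fl/fl library 7. Col8a1 and Col12a1 gave r = 0.923 (exact permutation, adjusted p = 0.0237, n = 8), with rho = 0.929, and r = 0.805 without FTbR2KO library 1 and TbR2fl/fl library 5, the 2 low libraries. Col8a2 and Col16a1 gave r = 0.885 (exact permutation, adjusted p = 0.0307, n = 8), with rho = 0.881, and r = 0.693 without FTbR2KO libraries 1 and 3. These were the only 3 of the 36 pairs to pass an adjusted p of 0.05 by Pearson's r, and 0 of 36 did by Spearman's rho, where these pairs had adjusted p of 0.111, 0.0804 and 0.111. Col6a2 and Col6a3 gave r = 0.898 (exact permutation, adjusted p = 0.0636, n = 8), and on deviations from the group means r = 0.896. Col6a6 and Col8a1 gave r = -0.79 (exact permutation, adjusted p = 0.124, n = 8), and on deviations from the group means r = -0.92. Without FTbR2KO library 1 and TbR2fl/fl library 8 their r was -0.55. The permutations of the deviations ran across both groups, so they were not exact and their p-values are not given.

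**Figure D5:**
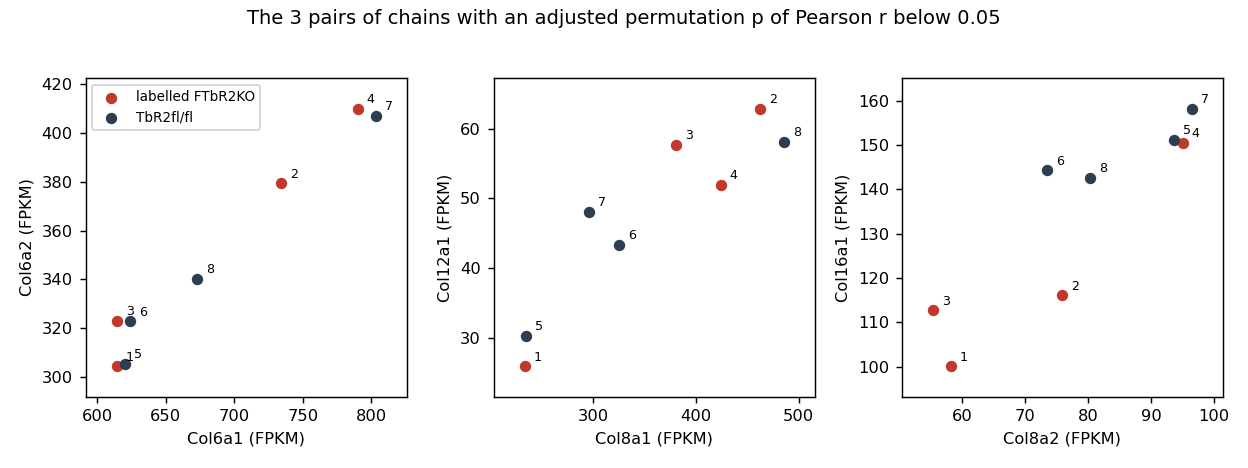
FPKM of 3 pairs of collagen chains plotted against each other, one point per library (n = 8), with libraries labelled FTbR2KO and TbR2fl/fl libraries marked apart. Pearson r of log2(FPKM + 1) is 0.983 for Col6a1 and Col6a2, 0.923 for Col8a1 and Col12a1 and 0.885 for Col8a2 and Col16a1.

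Other genes of the same pathway were counted from lists. Of 11 remaining chains of these collagen classes, 4 were tested and 0 passed, with 2 estimates above 0 and 2 below (3 and 1 without FTbR2KO library 4 or TbR2fl/fl library 5). Col9a2, a chain of collagen IX on cartilage fibrils, averaged 20.5 ± 6.81 FPKM in the libraries labelled FTbR2KO and 28.1 ± 6.44 FPKM in the TbR2fl/fl libraries (SD, n = 4 each, limma adjusted p = 0.601). Of 11 fibrillar chains 10 were tested and 0 passed, and all 10 estimates were below 0, with a median of -0.23. Col1a1 averaged 3934 ± 424 FPKM in the libraries labelled FTbR2KO and 5005 ± 283 FPKM in the TbR2fl/fl libraries (SD, n = 4 each), with a log2 fold change of -0.35 (SE 0.14, limma adjusted p = 0.571). Of the 5 fibrillar chains with the highest level, Col1a2 had a log2 fold change of -0.30, Col3a1 -0.20, Col5a1 -0.26 and Col5a2 -0.14. On the TPM scale and after quantile normalization 3 of the 10 fibrillar estimates were above 0 and 7 below. Relative to the TPM median of all tested genes all 10 were below. Relative to the median of all tested genes after quantile normalization, 8 were below and 2 above.

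Of 12 partners on fibrils and filaments, such as the proteoglycans and tenascins, 0 passed, with 7 estimates above 0 and 5 below and a median of 0.04 (12 above 0 on the TPM scale, and 7 above its median). Without TbR2fl/fl library 7 there were 10 above 0 and 2 below. Hspg2, the basement membrane proteoglycan perlecan, averaged 369 ± 35.7 FPKM in the libraries labelled FTbR2KO and 321 ± 27.5 FPKM in the TbR2fl/fl libraries (SD, n = 4 each, limma adjusted p = 0.640). Of 11 collagen receptors 0 passed, with 9 above 0 and 2 below and a median of 0.07 (11 above 0 on the TPM scale, and 9 above its median). Without FTbR2KO library 3 or TbR2fl/fl library 5 or 6 there were 7 above 0 and 4 below. Ddr2, the receptor tyrosine kinase for fibrillar collagens, averaged 35.2 ± 6.48 FPKM in the libraries labelled FTbR2KO and 25.6 ± 4.11 FPKM in the TbR2fl/fl libraries (SD, n = 4 each), with a log2 fold change of 0.44 (SE 0.15, unadjusted p = 0.0181, limma adjusted p = 0.571). Antxr2, a receptor for collagen VI, averaged 13.6 ± 1.80 FPKM in the libraries labelled FTbR2KO and 11.8 ± 1.54 FPKM in the TbR2fl/fl libraries (SD, n = 4 each, limma adjusted p = 0.654). Of 13 genes of collagen modification and folding 0 passed, with 3 above 0 and 10 below and a median of -0.04 (11 above 0 on the TPM scale, and 4 above its median). Single libraries turned this balance. It was 8 above 0 and 5 below without FTbR2KO library 1 (median 0.07) or TbR2fl/fl library 8 (median 0.03), 6 and 7 without TbR2fl/fl library 6 or 7, and 0 and 13 without FTbR2KO library 2 (median -0.11) or TbR2fl/fl library 5 (median -0.16). P4ha2, a prolyl hydroxylase subunit, averaged 9.44 ± 1.02 FPKM in the libraries labelled FTbR2KO and 10.9 ± 0.913 FPKM in the TbR2fl/fl libraries (SD, n = 4 each, limma adjusted p = 0.596).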

How the data were processed

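Poly(A) RNA of the sorted cells was sequenced, and the values are the authors' FPKM per gene as deposited, with gene names, positions and lengths per the file headers. For all 9 collagen genes the deposited length equals the merged exon length in GENCODE. The submitters' processing notes list 4 tools (CASAVA, TopHat2 2.0, Cufflinks 2.1.1, HTSeq 0.6.1) and 2 builds (mm10, GRCm38.p6) without saying what each was used for. Strand use in counting was not given in the sources used here. Every nonzero value was a whole multiple of 1 read (within 0.01), so reads could be recovered, 1145 to 108344 per member and library. They served for depth, for 1 alternative and for the simulated data on which the script was tested.

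Genes reaching 1 FPKM in 4 or more libraries were compared on log2(FPKM + 1), a scale that shrinks changes of low genes, with limma 3.58.1 in R 4.3.3 (trended empirical Bayes, Benjamini-Hochberg, threshold 0.05). The script was tested on simulated data. Ratios and correlations had exact two-sided permutation tests, written in Python 3.11.15 with numpy 2.4.6. Col6a6 shares 63 exon bases with Gm38314 on the other strand. The members and lists were chosen with earlier results of these data known. Named genes were all members, Tgfbr2, at most 4 genes of each list by smallest p, the 5 highest fibrillar chains, and the 3 genes most like a chain by Pearson r, of which 1 is not reported here. Col21a1 was not analysed here.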

Additional observations from a re-analysis of the deposited data

How the results depend on the processing

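Over 17 alternatives none of the 9 genes reached an adjusted p of 0.05; the smallest was 0.209, for Col16a1. Of 153 estimates 12 changed sign. With each library left out in turn the log2 fold change ran from -0.053 to 0.10 for Col6a1, -0.033 to 0.12 for Col6a2, -0.014 to 0.28 for Col6a3, -0.070 to 0.38 for Col12a1, -0.14 to -0.010 for Col14a1 and -0.44 to -0.25 for Col16a1. Sign changes came without FTbR2KO library 2 or 4 or TbR2fl/fl library 5 or 6 for Col6a1, FTbR2KO library 4 or TbR2fl/fl library 5 for Col6a2, FTbR2KO library 2 or 4 for Col6a3, and FTbR2KO library 2 or TbR2fl/fl library 5 for Col12a1. Col14a1 was 0.078 on the TPM scale and 0.0053 without FTbR2KO library 1 and TbR2fl/fl library 5. Estimates of Col6a6 (0.10 to 0.77 with a library left out), Col8a1 (0.013 to 0.38), Col8a2 (-0.45 to -0.19) and Col16a1 changed sign under none of the 17, but single libraries nearly removed those of Col8a1 and Col6a6. The difference in mean log2 ratio ran from -0.018 to 0.17 for Col6a3 over Col6a2 (below 0 without FTbR2KO library 2 or TbR2fl/fl library 8) and from -0.063 to 0.46 for Col12a1 over Col14a1 (below 0 without TbR2fl/fl library 5). Principal transcript lengths, chosen after seeing the data, gave mean ratios of 0.994 for Col6a1 over Col6a2, 0.326 for Col6a3 over Col6a1, 0.323 for Col6a3 over Col6a2 and 6.94 for Col8a1 over Col8a2. Genes past the threshold numbered 2, 1 with an FPKM of at least 5, 1 to 6 with a library left out, and 0 in limma without FTbR2KO library 1 and TbR2fl/fl library 5, where 1197 had an unadjusted p under 0.05; the cause was not tested. On deviations from the group means Col6a2 and Col6a3 gave r = 0.896. With 3 against 4 libraries the exact tests have fewer possible splits, which limits how small their p can be. No paired analysis was possible because the groups share no replicate number, and the tags in the library names, of which libraries 1 and 5 carry the 2 lowest, are not said to mark a litter, day or batch.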

Other observations

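Genes whose log2(FPKM + 1) followed the members most closely over the 8 libraries, out of 10617 to 10619 other tested protein-coding genes, were Vti1a (r = 0.971), Cilp (r = 0.971) and Uros (r = 0.959) for the mean of the 3 collagen VI partner chains. For Col8a1 they were Alg8 (r = 0.984), Endod1 (r = 0.981) and Ankrd40 (r = 0.969). For Col12a1 they included Ctdp1 (r = 0.989) and Colgalt1 (r = 0.976), and for Col14a1 they were Dstyk (r = 0.954), Pced1a (r = 0.949) and L3mbtl2 (r = 0.919). The best of so many genes over 8 libraries is high by selection, and the values are a description. Cilp, an extracellular matrix protein, ranged from 367 to 635 FPKM, and Vti1a only from 2.04 to 2.303 FPKM.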
